A study of Mus musculus with 2 samples.

Results

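The catenins and desmosome genes examined here were the 10 genes Ctnnb1, Ctnna1 and Ctnnd1, of the adherens junction, and Jup, Pkp2, Pkp3, Dsp, Dsg2, Dsc2 and Perp, of the desmosome. They were chosen by name, as all non-control probes that the array annotates with 1 of these symbols, which gave 23 of 41174 probes and 10 of 27962 gene names. Total RNA of 2 mouse neural progenitor lines was measured on 1 Agilent 1-colour array each. The line overexpressing Pax6, a paired-box transcription factor of eye and forebrain, carried a CAG-Pax6-IP construct. The line overexpressing EGFP, a green fluorescent protein that served as its control, carried CAG-EGFP-IP. CAG is a strong promoter active in most cell types. Both constructs were brought in by the Tol2 transposon, and both lines had the 129/Ola background. Both also shared their parent N31, a neural progenitor line made from induced pluripotent cells that were themselves derived from NSEB5-2C cells, with doxycycline-inducible genes for the reprogramming factors Oct3/4, Sox2, Klf4 and c-Myc. Both were sampled 24 h after doxycycline, when the EGFP line had visibly altered its morphology and the Pax6 line had not, per the series description. The sources used here do not say whether either line was a clone or a pool.

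Adherens junctions and desmosomes hold neighbouring cells together. In the adherens junction a classical cadherin binds beta-catenin (Ctnnb1) and p120-catenin (Ctnnd1) inside the cell, and alpha-catenin (Ctnna1) connects beta-catenin to actin. In the desmosome the cadherins desmoglein and desmocollin bind plakoglobin (Jup) and plakophilins, and desmoplakin (Dsp) ties this plaque to keratin or other intermediate filaments. Plakoglobin is a close relative of beta-catenin that can also bind classical cadherins, so it belongs to both junctions, and beta-catenin is in addition the transcriptional partner of the Wnt pathway. Gain of such junctions is part of the mesenchymal to epithelial transition, the step of reprogramming that the series addressed.

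With 1 array per line there is no replicate check, no test and no p-value, and all comparisons describe these arrays. Of 43379 non-control spots, 67.2% on the Pax6 array and 64.7% on the EGFP array were well above background, and none was saturated. Signals are the scanner software's processed signals in array units, and a probe's signal is not compared with another probe's. A difference is the log2 signal on the Pax6 array minus that on the EGFP array, after each array was scaled to its 75th percentile (a signal of 991 on the Pax6 array and 854 on the EGFP array), which lowers every unscaled log2 ratio by 0.21. The value after ± is the software's measurement error of that difference, with a median of 0.20 over genes, and it leaves out the variation between cultures. A gene took its brightest probe. All 10 genes were well above background on both arrays, through 16 of their 23 probes, and the other 7 probes did not clear background on either array. The brightest probe of Pax6 itself read 822 on the Pax6 array and 557 on the EGFP array, a difference of 0.35, and its other probe measured on both arrays differed by 0.26. Its remaining probe, well above background only on the Pax6 array, read 14.8 on the Pax6 array and 2.50 on the EGFP array, a lower bound of 0.30. All 3 were higher on the Pax6 array, those measured on both arrays by less than 2 times the median error of 0.20. The labels give no word on which part of Pax6 the construct carries, so these values do not check the labels, on which every direction rests.

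Of the 10 genes, only Jup reached the 2-fold rule, at 2.21-fold lower on the Pax6 array. The other 9 lay within 2-fold of the EGFP array. Over all 19250 genes above background on at least 1 array, 4.71% reached 2-fold in either direction, 2.36% lower and 2.35% higher. Normexp background correction models the background and here adds an offset of 50, which makes the differences of dim probes smaller. With it the split was 176 genes higher and 109 lower, against 452 higher and 454 lower as reported. The 3 adherens junction catenins had a median difference of -0.09 and the 7 desmosomal genes one of -0.03, against -0.01 over all genes used. The 3 catenins lay between -0.18 and 0.09, and the 7 desmosomal genes between -1.15 and 0.67.

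**Figure D1:**
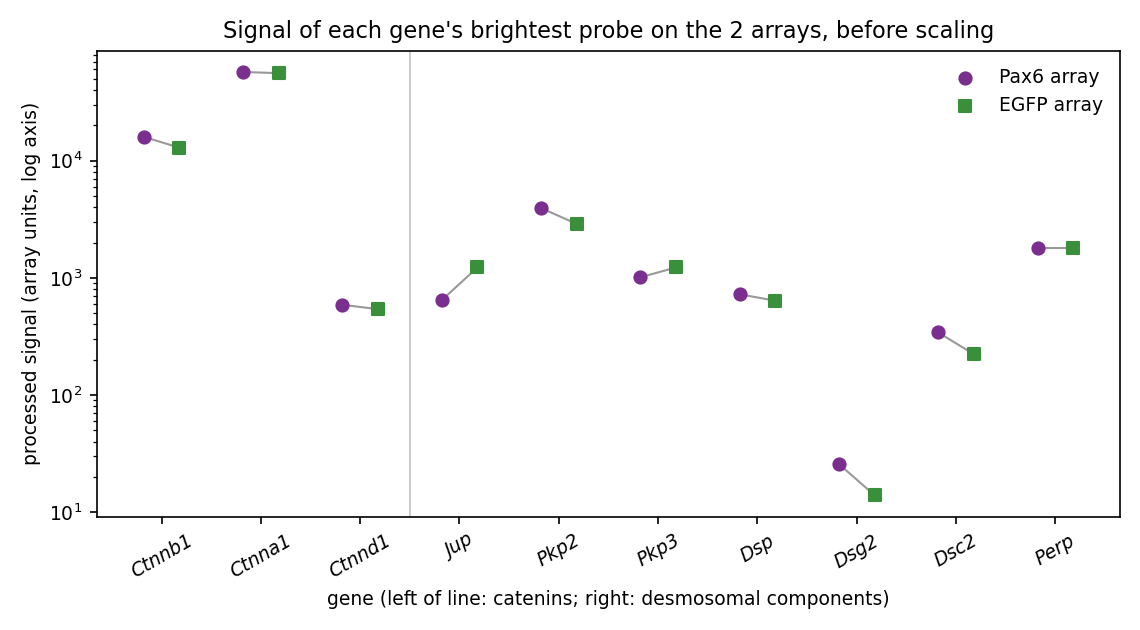
Processed signal (array units, log axis) of the brightest probe of each of the 10 genes on the Pax6 array (circles) and the EGFP array (squares), before scaling, with 1 array per line. Jup read 642 on the Pax6 array and 1224 on the EGFP array, while Perp read 1795 on the Pax6 array and 1793 on the EGFP array.

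The catenins of the adherens junction differed little between the lines. Ctnnb1, the gene of beta-catenin, was read by 3 probes on chromosome 9 (coordinates of the array design, mouse build mm7). The brightest, at 120658490 to 120658549, gave a signal of 15945 on the Pax6 array and 12887 on the EGFP array, a difference of 0.09 ± 0.20. A second probe nearby, at 120657994 to 120658053, was spotted 10 times. Its spots ranged from 14151 to 16883 on the Pax6 array and from 11099 to 13662 on the EGFP array. Its mean difference was 0.09, with a range of 0.04 to 0.14 and an SD of 0.027 over the 10 spots, which are technical repeats within 1 array pair. All 10 spots thus lay above 0, by an amount below the measurement error that the software assigns. The third probe, at 120654491 to 120654550, read 1303 on the Pax6 array and 1246 on the EGFP array and differed by -0.15 ± 0.20. Without an annotation of build mm7, the exon or untranslated region that a probe lies in is not given.

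Ctnna1, the gene of alpha-catenin, had 1 probe under its name (chromosome 18, 35630576 to 35630635). It read 57083 on the Pax6 array and 55653 on the EGFP array, a difference of -0.18 ± 0.20, within the measurement error. A probe that the array calls 2010010M04Rik, listed by RefSeq as an older name of Ctnna1, was not among the 23 because its array name differs. It lies at chromosome 18, 35558667 to 35558726, and read 1102 on the Pax6 array and 1430 on the EGFP array. Its difference of -0.59 ± 0.20 was 1.51-fold lower on the Pax6 array, larger than that of the named probe. The sources used here do not name the transcript that this second probe reads.

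Ctnnd1, the gene of p120-catenin, which stabilises cadherins at the cell surface, had 3 probes on chromosome 2. The brightest (84445272 to 84445331) read 589 on the Pax6 array and 540 on the EGFP array, a difference of -0.09 ± 0.20. Another (within 84447447 to 84448937) read 60.2 on the Pax6 array and 46.7 on the EGFP array and differed by 0.15 ± 0.24. The remaining probe, with signals of 2.48 on the Pax6 array and 3.30 on the EGFP array, was not well above background on either. The measured probes of Ctnnd1 thus had opposite signs, each with a size below its error.

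Jup, the gene of plakoglobin, was the 1 member at least 2-fold lower on the Pax6 array. Its 1 probe (chromosome 11, 100480420 to 100480479) had a single spot that read 642 on the Pax6 array and 1224 on the EGFP array. The difference was -1.15 ± 0.20, which is 5.61 times its measurement error. Of 17832 genes measured on both arrays, 254 had a difference as low or lower, placing Jup at percentile 1.42. The spot was even on both arrays, with pixel-to-pixel variation of 13.4% on the Pax6 array and 13.9% on the EGFP array, and its mean pixel was 20.7 times the local background on the Pax6 array and 41.9 times on the EGFP array. No second probe or replicate spot of Jup was available to check the value. In RNA from a whole culture, fewer cells that express a gene and less RNA of it per cell cannot be told apart.

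**Figure D2:**
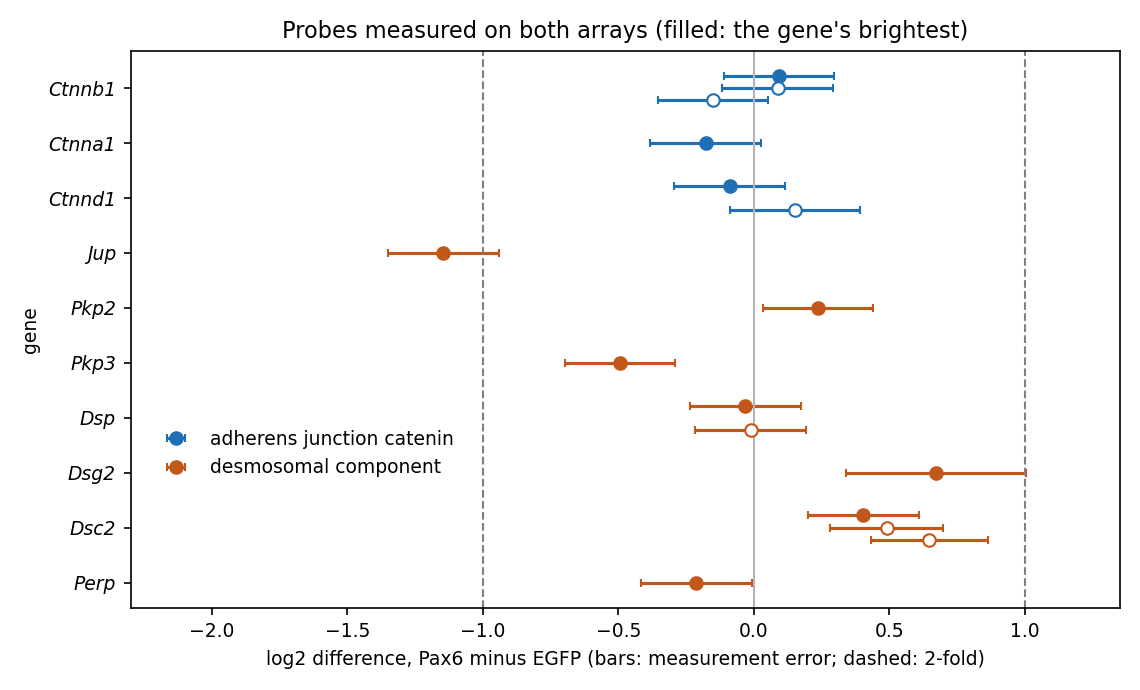
Log2 difference, Pax6 minus EGFP, of the 16 probes measured on both arrays, with the software's measurement error as bars, filled points for the probe used for the gene and dashed lines at 2-fold. The probe of Jup, at -1.15, lies beyond the lower line, and the 3 probes of Dsc2 all lie between 0.40 and 0.65.

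The gap between Jup and its relatives on the same arrays does not depend on a factor that scales a whole array. Jup minus its paralog Ctnnb1 gave a difference of log2 differences of -1.24 ± 0.29, a 2.36-fold change in the ratio of the Jup and Ctnnb1 signals. Jup minus Dsp, its partner in the desmosomal plaque, gave -1.11 ± 0.29, and Jup minus Ctnna1 gave -0.97 ± 0.29. Against the desmosomal cadherins, Jup minus Dsc2 gave -1.55 ± 0.29 and Jup minus Dsg2 gave -1.82 ± 0.39. Each of these exceeded 3 times its error. All of them share the single spot of Jup, the member that differed most, so they are not independent of one another. The gap to Dsg2 also rests on small signals of Dsg2, 25.8 on the Pax6 array and 13.9 on the EGFP array. By contrast Ctnna1 minus Ctnnb1 gave -0.27 ± 0.29 and Ctnnd1 minus Ctnnb1 gave -0.18 ± 0.29, below the error, so the ratios among the adherens junction catenins were not resolved from unchanged ones. Among the plakophilins, Jup minus Pkp2 gave -1.38 ± 0.29. Pkp3 (-0.49 ± 0.20) and Pkp1, which is not a member (-0.87 ± 0.20), were themselves lower. Their gaps to Jup were smaller than the gaps of Jup listed here. The gap to Pkp1 was below 0.29, the error of most of these gaps, so Jup was not resolved from Pkp1.

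RefSeq promoter windows, from 250 bases before to 50 bases after an annotated start, were listed for 4 of the 10 genes (6 windows, build GRCm38.p6). Those of Jup, the member that differed most, and of Dsp and Ctnnb1, 2 partners or relatives that did not reach 2-fold, are printed here for comparison. Capitals mark GGGCGG or its reverse complement CCGCCC (a GC box) and CAGGTG or its reverse complement CACCTG (the E-box bound by repressors of the Zeb and Snail families). Both strands were searched, and the marked motifs do not overlap. The build is not that of the probe coordinates.
Jup, chr11:100397741-100398040, minus strand: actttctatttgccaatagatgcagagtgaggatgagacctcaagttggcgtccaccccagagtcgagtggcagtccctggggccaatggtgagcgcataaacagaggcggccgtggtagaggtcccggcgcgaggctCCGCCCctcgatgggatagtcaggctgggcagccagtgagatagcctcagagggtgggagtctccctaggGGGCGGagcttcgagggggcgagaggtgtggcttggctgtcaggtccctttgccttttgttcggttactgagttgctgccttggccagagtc
Dsp, chr13:38151044-38151343, plus strand: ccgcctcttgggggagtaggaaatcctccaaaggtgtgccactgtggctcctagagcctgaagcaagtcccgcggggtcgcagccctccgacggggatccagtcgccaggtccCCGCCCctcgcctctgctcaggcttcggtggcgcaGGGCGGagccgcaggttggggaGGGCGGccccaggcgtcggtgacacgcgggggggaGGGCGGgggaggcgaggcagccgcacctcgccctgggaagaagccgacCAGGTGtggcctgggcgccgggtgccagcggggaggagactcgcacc
Ctnnb1, chr9:120933150-120933449, plus strand: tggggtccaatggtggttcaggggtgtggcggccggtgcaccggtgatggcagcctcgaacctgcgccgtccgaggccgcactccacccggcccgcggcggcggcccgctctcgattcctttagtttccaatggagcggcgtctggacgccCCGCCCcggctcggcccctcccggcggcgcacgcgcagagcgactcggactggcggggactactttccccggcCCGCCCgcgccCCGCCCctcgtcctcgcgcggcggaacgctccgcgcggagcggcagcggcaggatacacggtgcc
The Jup window held 2 GC boxes and no CAGGTG, the Dsp window 4 GC boxes and 1 CAGGTG, and this window of Ctnnb1 3 GC boxes and no CAGGTG. The window of Jup was 60.7% G and C, below 73.0% for Dsp and 75.3% for Ctnnb1, where the median over all windows was 52.7%. Windows of Ctnnd1, which also stayed within 2-fold and are not printed, were 42.7% and 67.7% G and C. They held no GC box and no CAGGTG, so Jup was not the lowest member in either respect. Of all 32851 windows of this length, 35.7% held a GC box and 20.2% a CAGGTG on either strand. These matches describe the letters of the windows and say nothing of whether a factor was bound.

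Plakophilins link desmosomal cadherins and desmoplakin. Pkp2 and Pkp3, the plakophilins among the members, both lay within 2-fold, and of these only Pkp3 differed by more than 2 times its error. Pkp3, the plakophilin found most widely among epithelia, read 1010 on the Pax6 array and 1225 on the EGFP array (chromosome 7, 137507588 to 137507647). Its difference of -0.49 ± 0.20 was 1.41-fold lower and 2.42 times its error, at percentile 9.21 of all genes measured on both arrays. Pkp2, the plakophilin known for its role in heart muscle and simple epithelia, read 3941 on the Pax6 array and 2881 on the EGFP array (chromosome 16, 15815912 to 15815971). Its difference was 0.24 ± 0.20, 1.16 times its error. Pkp3 minus Pkp2 gave -0.73 ± 0.29, a 1.66-fold change in the ratio of their signals.

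Dsp, the gene of desmoplakin, was close to equal between the lines. Its 2 measured probes lie on chromosome 13. The brighter, at 37617147 to 37617206, read 724 on the Pax6 array and 638 on the EGFP array, a difference of -0.03 ± 0.20. The other, at 37616760 to 37616819, read 460 on the Pax6 array and 400 on the EGFP array and differed by -0.01 ± 0.20. Both therefore gave the same value within their error. A further 2 probes, at lower coordinates on that chromosome, gave signals of 2.50 to 8.03 on the Pax6 array and 2.84 to 3.71 on the EGFP array and were not well above background on either.

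The desmosomal cadherins Dsc2 and Dsg2, the desmocollin and desmoglein found in simple epithelia as well as in stratified ones, had higher values in the Pax6 line, within 2-fold. Dsc2 was read by 3 probes on chromosome 18, with signals of 342, 179 and 110 on the Pax6 array, against 223, 110 and 60.5 on the EGFP array in the same order. The differences were 0.40 ± 0.20 (20405900 to 20406485), 0.49 ± 0.21 (20405525 to 20405584) and 0.65 ± 0.22 (20405202 to 20405261), or 1.32-fold to 1.57-fold. The probes of Dsc2 thus shared a direction, and 2 of the 3 exceeded 2 times their error. Dsg2 had 5 probes, of which 1 was well above background (chromosome 18, 20974462 to 20974521). It read 25.8 on the Pax6 array and 13.9 on the EGFP array, a difference of 0.67 ± 0.33. Its mean pixel was 2.12 times the local background on the Pax6 array and 2.07 times on the EGFP array, so that the difference rests on small signals, and it was 0.09 with normexp background correction and 0.30 from the median pixel of the spot. The other 4 probes of Dsg2 read 2.71 to 8.27 on the Pax6 array and 2.32 to 10.4 on the EGFP array, and their differences as measured ranged from -1.12 to 0.27 with errors of 0.62 to 1.85.

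Perp, a tetraspan membrane protein gene of desmosomes and a target of p53 and p63, gave nearly equal unscaled signals, 1795 on the Pax6 array and 1793 on the EGFP array (chromosome 10, 18579623 to 18579682). After scaling its difference was -0.21 ± 0.20, close to its error.

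**Figure D3:**
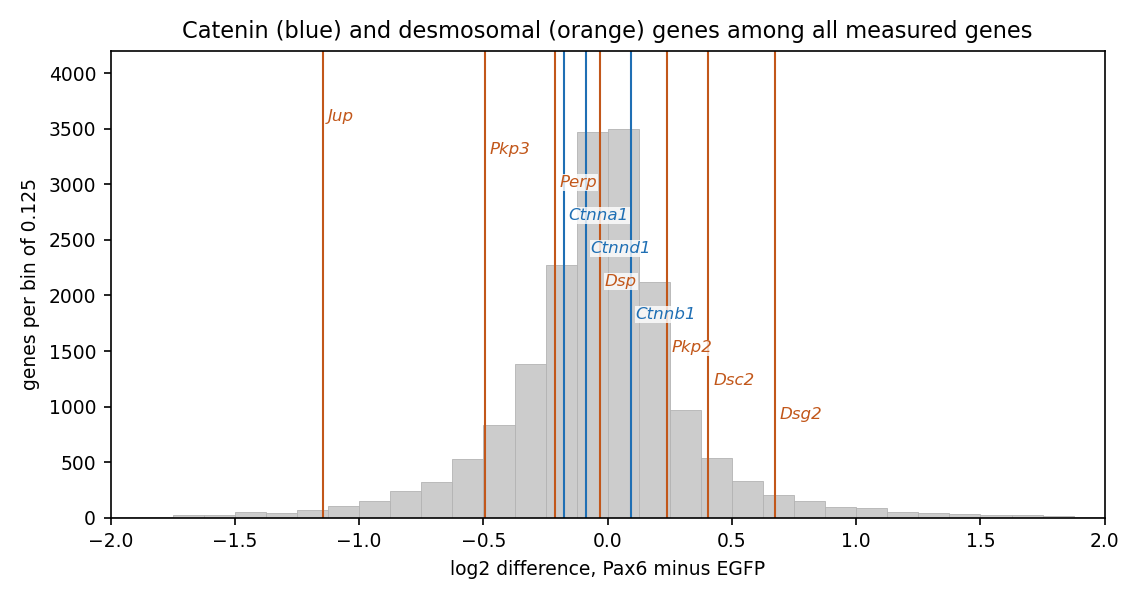
Number of genes per bin of log2 difference, Pax6 minus EGFP, among the 17832 genes measured on both arrays (grey; the axis is limited to 2 in each direction), with the catenins (blue) and desmosomal genes (orange) as lines. Jup at -1.15 lies in the lower tail, and the 3 catenins lie in the centre.

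By the measure of error, 3 of the 10 genes differed from 0 by more than 2 times their measurement error, Jup and Pkp3 on the lower side and Dsg2 on the higher side. Over all 19250 genes used, 16.2% did so while measured on both arrays. The 19250 include 1418 genes given as bounds, which this rule could not count, so the share among genes measured on both arrays is higher. Dsc2 came next, at 1.97 times its error with its brightest probe. At a rule of 1.5-fold, Jup was the only member counted as lower and Dsg2 the only one counted as higher, where 7.62% and 5.91% of all genes were. Within the desmosome the 4 genes of the cytoplasmic plaque (Jup, Pkp2, Pkp3 and Dsp) had a median of -0.26, and the 3 membrane protein genes (Dsg2, Dsc2 and Perp) one of 0.40. These medians rest on few genes, and Dsg2 on a signal close to background. With normexp the membrane genes differed by 0.09 (Dsg2), 0.34 (Dsc2) and -0.24 (Perp). The plaque genes then differed by -1.05 (Jup), 0.21 (Pkp2), -0.37 (Pkp3) and -0.03 (Dsp). Without Jup the desmosomal median as reported was 0.10, with 3 genes above 0 and 3 below.

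The remaining genes of these junctions lay mostly within 2-fold. Of 7 other desmosomal cadherin genes (Dsg1a, Dsg1b, Dsg1c, Dsg3, Dsg4, Dsc1 and Dsc3, which are typical of stratified epithelia), none was well above background on either array. Their 10 probes read at most 7.78 on the Pax6 array and 6.23 on the EGFP array. The 8 other plakophilins and plakins had a median of 0.06, and none reached 2-fold. Among them Pkp1, a plakophilin of stratified epithelia, read 2956 on the Pax6 array and 4652 on the EGFP array, 1.83-fold lower at -0.87 ± 0.20. The plakin gene Ppl, of periplakin, differed by 0.33 ± 0.20. The other catenin family genes had a median of -0.03 over 6 of 7 above background (1 as a bound), with none at 2-fold. Pkp1 and Ppl were named after their values were seen.

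Of 18 partners of the adherens junction, Cdh1 was the 1 beyond 2-fold on the lower side and Lmo7 the 1 beyond it on the higher side, with a median of -0.04 in which 2 genes count at their lower bounds. After scaling by the array median, 2 were beyond it on the higher side. Cdh1, the gene of E-cadherin, which the catenins bind, read 65.3 on the Pax6 array and 594 on the EGFP array, a difference of -3.40 ± 0.21 (-2.53 with normexp background correction). Cdh2, the gene of N-cadherin, which binds the same catenins, read 1779 on the Pax6 array and 1261 on the EGFP array, a difference of 0.28 ± 0.20. Lmo7, the gene of an actin-associated protein of adherens junctions, read 8209 on the Pax6 array and 2740 on the EGFP array, a difference of 1.37 ± 0.20 (2.58-fold). A second probe of Lmo7 measured on both arrays, with signals of 300.4 on the Pax6 array and 92.3 on the EGFP array, differed by 1.49.

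**Figure D4:**
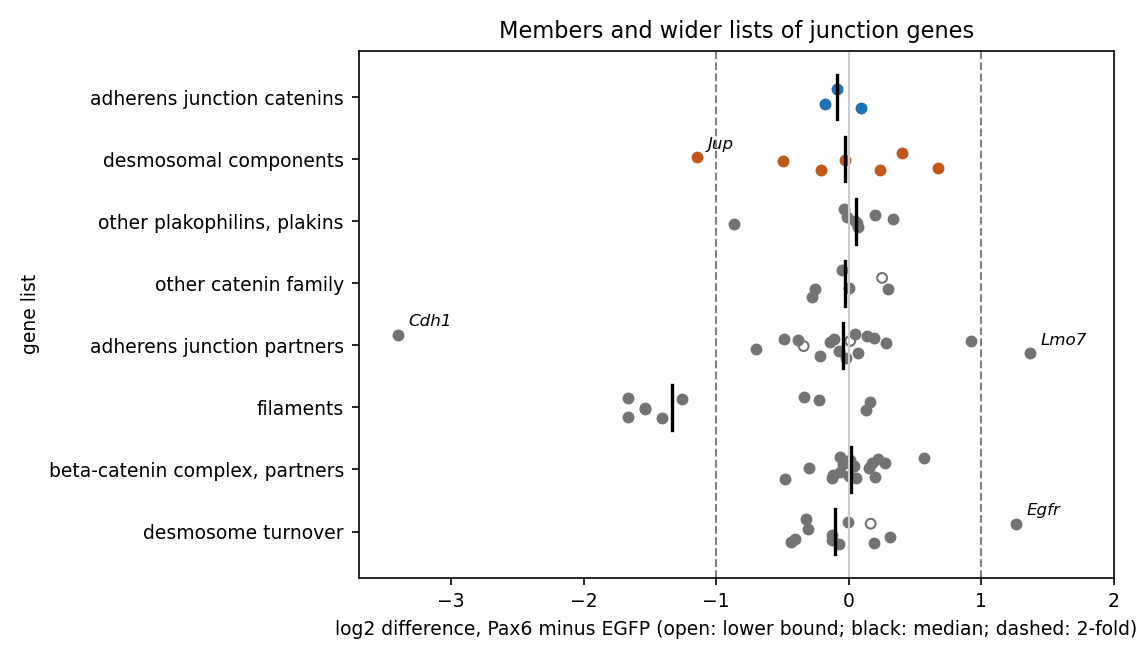
Log2 difference, Pax6 minus EGFP, of each gene in the 2 member groups and in 6 wider lists, with lower bounds as open circles, list medians as black bars and dashed lines at 2-fold. Jup, Cdh1 and 6 filament genes lie beyond the lower line, and Lmo7 and Egfr beyond the upper one.

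Keratins and other intermediate filaments were the list with the most differences among those drawn up around these junctions. Nes and Vim in it are counted again among the markers of neural progenitors. Of 10 genes, 6 were at least 2-fold lower on the Pax6 array and none was higher, with a median of -1.33. With normexp background correction 4 of the 10 were at least 2-fold lower and the median was -0.43. The 4 largest differences were those of Nes, of nestin (-1.66), Krt19 (-1.66), Des, of desmin (-1.54, and -0.56 with normexp) and Krt8 (-1.54). Krt19, a keratin of simple epithelia, read 253 on the Pax6 array and 690 on the EGFP array. Krt8, the main partner of Krt18 in such epithelia, read 6266 on the Pax6 array and 15665 on the EGFP array. Vim, the gene of vimentin, differed by 0.13 ± 0.20. This list had earlier been seen to differ in these arrays, so its count is not independent evidence.

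Genes that degrade beta-catenin or work with it in the nucleus stayed within 2-fold. Of 20 genes, 18 were above background, with a median of 0.02 and a range of -0.48 to 0.57. Apc, the scaffold of the destruction complex, differed by -0.04, Gsk3b, its kinase, by -0.30, and Lef1, a nuclear partner, by 0.01. Axin2, a feedback target of beta-catenin, was not well above background, with signals of 5.22 on the Pax6 array and 4.11 on the EGFP array. Of 13 genes of desmosome turnover and control, 12 were above background (1 as a bound) with a median of -0.10. Egfr, a receptor whose signalling loosens desmosomes, was the 1 that reached 2-fold, at 2.40-fold higher with signals of 1714 on the Pax6 array and 613 on the EGFP array. Trp63, the gene of p63, which drives Perp in stratified epithelia, was not well above background on either array.

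Markers of simple epithelium lay on the same side as Jup. Their list was chosen with earlier results of these data known, so its count is not independent evidence. Over all genes used, 2.36% were at least 2-fold lower. Among the members described above as found in simple epithelia, Dsc2 (0.40), Dsg2 (0.67) and Pkp2 (0.24) lay on the other side. Pkp3, found widely among epithelia, was lower (-0.49). Of 10 markers of simple epithelium, 7 were above background, and all 7 were at least 2-fold lower on the Pax6 array (5 with normexp background correction), with summed signals of 25394 on the Pax6 array and 60154 on the EGFP array. Summed signals in this paragraph are unscaled, so a small excess on the Pax6 array is no direction after scaling. Cldn4, Esrp1 and Ocln were not above background. Of the 7, Krt8, Krt18, Krt19 and Cdh1 also belong to the lists described before. The part of these markers in the value of Jup was not tested. Of 8 markers of stratified epithelium, 5 were above background with a median of 0.16. Their summed signals were 28214 on the Pax6 array and 25567 on the EGFP array. Most of each sum was Sfn, at 25651 on the Pax6 array and 24102 on the EGFP array, which differed by -0.12 after scaling. Trp63, Krt1 and Ivl were not above background. Of the 5, Lor, the gene of loricrin, was 2.84-fold higher, with signals of 1377 on the Pax6 array and 419 on the EGFP array, and Krt5, Krt10, Krt14 and Sfn lay within 2-fold. Of 7 markers of heart muscle, where Pkp2, Dsp, Dsg2 and Jup are also active, 5 were above background with a median of -0.14 and summed signals of 2573 on the Pax6 array and 2478 on the EGFP array, and the heart myosin genes Myh6 and Myh7 were not. Of the 5, Myl7 was the 1 beyond 2-fold, at -1.01. It was within 2-fold after median, quantile, cyclic loess or spike-in scaling and with normexp. Of 7 endothelial markers 3 were above background (1 as a bound), with summed signals of 49.3 on the Pax6 array and 41.2 on the EGFP array, and Pecam1 and Cdh5 were not. Of 8 fibroblast markers, which included 3 bounds, 4 met the 2-fold rule upward and 3 downward, with a median of 1.10 (0.65 with normexp). Their summed signals, 62575 on the Pax6 array and 94706 on the EGFP array, point the other way because Col1a2, at 46506 on the Pax6 array and 90871 on the EGFP array, makes up most of them. Neuronal markers had a median of -0.38 over 6 genes (1 as a bound), with Snap25 the 1 beyond 2-fold, at -1.66. Oligodendrocyte markers had a median of -0.38 over 5 genes, with Mbp the 1 beyond 2-fold, at -1.07 (-0.99 after scaling by the array median). Astrocyte markers had a median of 0.63 over 4 genes, of which Gfap and Aqp4 count at lower bounds. Aqp4 was the 1 beyond 2-fold, at a bound of 1.95. With normexp the astrocyte median was 0.35 and Aqp4 differed by 0.50.

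Markers of the labelled cell type were in part above background and in part not. Differences between the arrays do not test whether either line was of that type. Of 10 markers of neural progenitors, 8 were above background on both arrays, with a median of 0.01, of which 3 passed 2-fold, 1 upward and 2 downward. Sox2 was the higher one, at 307 on the Pax6 array and 79.2 on the EGFP array (1.74, and 1.24 with normexp). Sox2 is also among the doxycycline-inducible genes that both lines carry. Without a probe sequence, RNA of that introduced gene and of the cells' own Sox2 cannot be told apart here. Slc1a3, a glutamate transporter gene, was lower, at 27.5 on the Pax6 array and 306 on the EGFP array (-3.69, and -2.18 with normexp), as was Nes, at 1711 on the Pax6 array and 4678 on the EGFP array. Msi1, Vim, Sox1 and Fabp7 were among those within 2-fold. Sox1 had small signals, 18.7 on the Pax6 array and 19.2 on the EGFP array. Those of Fabp7 were also small, 19.7 on the Pax6 array and 12.3 on the EGFP array. Olig2 and Hes5 did not clear background on either array.

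**Figure D5:**
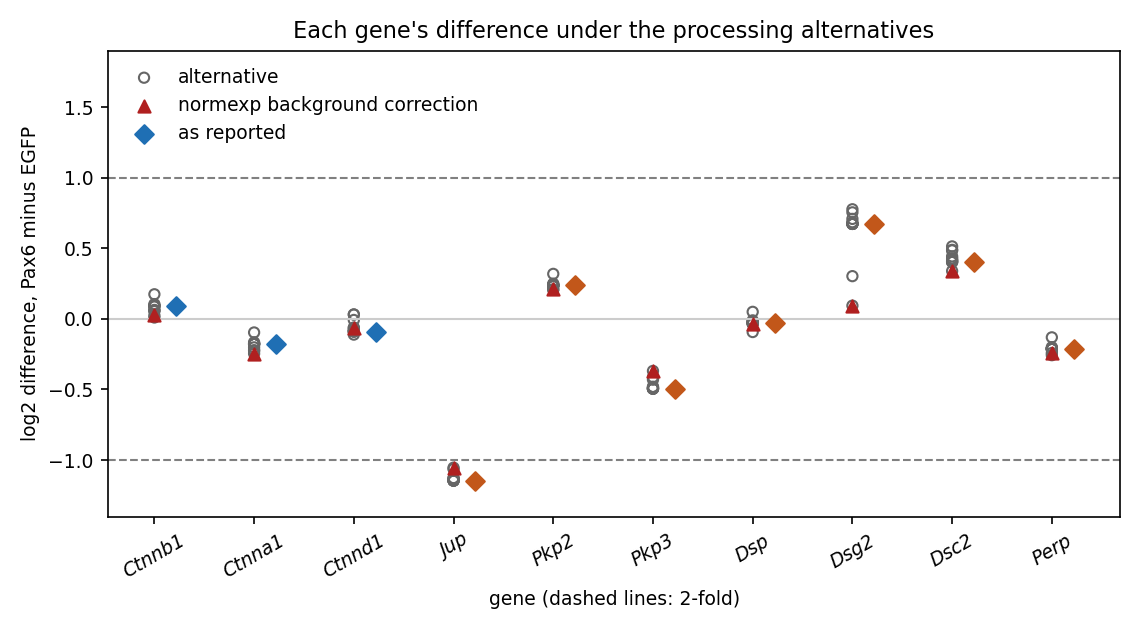
Log2 difference, Pax6 minus EGFP, of each of the 10 genes as reported (diamonds) and under the processing alternatives (open circles, with normexp background correction as triangles), with dashed lines at 2-fold. Jup stays between -1.15 and -1.05, and Dsg2 ranges from 0.09 to 0.78.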

How the data were processed

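RNA was labelled with Cy3, per the labels' protocols. The 2 arrays share 1 slide and 1 scan, and their spots were read by Agilent Feature Extraction, version 10.7.3.1, according to the scanner files. What the authors deposited are intensity values with the background subtracted and a spatial trend removed within an array, without normalization across arrays, per the file headers. A deposited series table repeats these values. A spot counts as well above background at 13 SDs of the background, and the error model has a multiplicative part of 10%, per the file headers.

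Spots that the software marked as outliers were dropped (52 on the Pax6 array and 51 on the EGFP array). Log2 signals were scaled to the 75th percentile of their array, spots were averaged by probe, and the brightest probe stood for its gene. Genes well above background on at least 1 array were used (19250, with 17832 on both). For the rest of these, the difference is a lower bound, taken against the dim probe's signal or, if higher, the array's lowest signal that passes (9.72 on the Pax6 array, 10.3 on the EGFP array). Current RefSeq symbols were found by accession for 55.7% of 41168 probes. With 1 array per group no test was made. All 10 members are named, with Cdh1, Cdh2 and up to 4 genes beyond 2-fold per wider list, and further genes as examples chosen after their values were seen. The members and lists were chosen with earlier results of these data known. Likeness of pattern to other genes was not measured, since 2 arrays give 1 difference. The steps were tested on simulated data with planted changes well beyond 2-fold, so calls near 2-fold, such as that of Jup, were not covered. Python 3.11.15, R 4.3.3 and limma 3.58.1 were used.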

Additional observations from a re-analysis of the deposited data

How the results depend on the processing

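Jup was at least 2-fold lower, between -1.14 and -1.05, under the 6 alternatives that could move it (scaling to the median, to spike-ins, by quantiles or by cyclic loess, normexp background correction with offset 50, and the median pixel, which was added after seeing the data). The other 5, the identical series table and rules on probes and filters, leave a gene with 1 bright probe as it is and say nothing of its stability. The count of 1 desmosomal gene at least 2-fold lower also held at 1.5-fold and with a demand for more than 2 times the error. Medians of the desmosomal genes ranged from -0.03 to 0.10, above 0 under 2 alternatives, and those of the catenins from -0.13 to 0.03. The difference between these medians, 0.06 as reported, ranged from -0.05 to 0.24, so its sign was not settled, and it was 0.24 with Jup counted among the catenins. Ctnnd1 was above 0 under 2 of its alternatives and Dsp under 1. Beyond 2-fold lay 906 genes as reported, 285 when normexp was used, 2539 if dim probes were not filtered, and 2604 under the 1.5-fold rule. Of the genes called, 49.9% were higher as reported, against 61.8% with normexp, and scaling by the median moved the median of all genes to 0.07. Among the wider lists Krt7 and Des differed by -0.31 and -0.56 with normexp, within 2-fold. No paired analysis was possible because each group has 1 array. The number of arrays, and for Dsg2 a signal close to background, limit the precision.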
